A study of Mus musculus with 3 samples.

Results

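Collagens are the main structural proteins of the extracellular matrix, and the rows examined here are those of the collagen chains and of the enzymes that modify them. The set was proposed with earlier results of these data known, and its members were then taken by a rule on gene symbols that uses no measured value: symbols that begin as a collagen chain does, the prolyl 4-hydroxylase alpha subunits P4ha1 to P4ha3, the lysyl hydroxylases Plod1 to Plod3, lysyl oxidase and its relatives (Lox, Loxl1 to Loxl4) and the chaperone Serpinh1. This gave 57 of the 20308 genes in the table, of which 44 encode collagen chains and 12 encode enzymes or the chaperone. The remaining match, Col4a3bp, encodes a ceramide transfer protein and is no collagen. It stood at 22.29, 25.06 and 25.89 TPM in replicates 1, 2 and 3 and is left out of the sums below.

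RNA sequencing was done on satellite cells, the stem cells of skeletal muscle that lie between the fibre and its basement membrane. The 3 libraries formed 1 group: Pax7-ZsGreen mice aged 3 months, with no treatment or further allele named, so no conditions could be compared. Muscle of several animals was pooled, digested with collagenase II and dispase, and sorted for about 200000 cells per sample carrying the green fluorescent reporter driven by Pax7. The tissue is named as tibialis anterior in the sample labels and as hindlimb muscle in the series text. Values are TPM, transcripts per 1000000 after division by transcript length, so levels of different genes can be set side by side. Coverage along the transcripts is not known, so uneven coverage could shift ratios between genes, and this was not tested. The table keeps no read totals, so depth is unknown. Nothing says that the libraries came from separate animals, so a p-value here speaks only of spread between these 3 libraries, which could be technical. The limma test used below also draws on the spread of other genes at a similar level. A call therefore need not follow how far the libraries differ for that gene. All 10 satellite cell markers examined were above 1 TPM, beside 60.8% of all tested genes. Among these 10 was Pax7, on which the sort rested, at 56.79, 46.37 and 51.09 TPM.

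A collagen molecule is a triple helix of chains with glycine at regular intervals. In the endoplasmic reticulum, prolyl and lysyl hydroxylases modify the chains and Serpinh1 (also called HSP47) holds the folded helix. After secretion, propeptides are removed and lysyl oxidases cross-link the fibrils. Fibrillar types I, III and V form the connective tissue of muscle, type IV forms the basement membrane network, and type VI forms beaded filaments beside it. In earlier work on muscle stem cells, type V collagen made by the cells themselves kept them quiescent through the calcitonin receptor, and type VI collagen in the niche was needed for their self-renewal.

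Starting with sequence, the members' genes differ in what lies before their start sites, and some lie next to each other. Of the 57 members, 42 had a promoter window (250 bases before the start site and 50 after) from RefSeq on GRCm38.p6. Stretches are shown for 6 chains whose levels the results turn on. Col4a1 and Col4a2, the chains of the main type IV molecule, lie head to head on chromosome 8 and their annotated transcripts overlap by 22 bases. That overlap, chr8:11312805-11312826, holds a match to the GC box GGGCGG (in capitals) at the same genome position (11312812 to 11312817) for both genes, and it reads as follows on the strand of each gene.
Col4a1: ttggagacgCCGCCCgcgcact
Col4a2: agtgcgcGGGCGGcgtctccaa

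Stretches from a further 4 genes show windows with and without motif matches. The 250 bases before the start sites of the fibrillar chains Col3a1 (chr1:45311288-45311537, plus strand) and Col5a1 (chr2:27886175-27886424, plus strand) are given first, then those of the type VI chains Col6a1 (chr10:76726045-76726294, minus strand) and Col6a3 (chr1:90843972-90844221, minus strand). For Col6a1 the RefSeq start site lies inside the gene as GENCODE places it (up to 76726168), so part of its stretch does too. Capitals mark matches, on either strand, to the TATA box TATAAA, the CCAAT box or the GC box GGGCGG.
Col3a1: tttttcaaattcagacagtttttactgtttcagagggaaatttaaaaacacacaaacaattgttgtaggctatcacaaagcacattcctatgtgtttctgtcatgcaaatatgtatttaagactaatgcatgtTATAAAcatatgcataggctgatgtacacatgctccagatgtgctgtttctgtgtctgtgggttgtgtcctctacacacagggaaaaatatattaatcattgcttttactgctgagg
Col5a1: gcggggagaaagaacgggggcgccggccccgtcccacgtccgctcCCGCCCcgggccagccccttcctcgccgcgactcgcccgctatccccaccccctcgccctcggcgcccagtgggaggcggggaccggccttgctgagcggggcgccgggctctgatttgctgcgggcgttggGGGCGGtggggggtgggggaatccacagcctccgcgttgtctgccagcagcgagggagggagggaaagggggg
Col6a1: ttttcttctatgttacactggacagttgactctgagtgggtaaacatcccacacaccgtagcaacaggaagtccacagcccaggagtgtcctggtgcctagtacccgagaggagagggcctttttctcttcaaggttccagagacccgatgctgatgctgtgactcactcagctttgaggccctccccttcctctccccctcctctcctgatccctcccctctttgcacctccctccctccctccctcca
Col6a3: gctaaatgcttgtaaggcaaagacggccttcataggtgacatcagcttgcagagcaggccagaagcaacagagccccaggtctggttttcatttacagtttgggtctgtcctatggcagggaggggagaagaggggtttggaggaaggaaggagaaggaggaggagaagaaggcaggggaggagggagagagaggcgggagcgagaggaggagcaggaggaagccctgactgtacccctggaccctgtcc

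Collagen chain transcripts made up 0.286%, 0.328% and 0.267% of all TPM in replicates 1, 2 and 3. Their mean share was 0.293% ± 0.0313 (SD, n = 3), and they summed to 2858.8, 3278.5 and 2665.7 TPM. All TPM here are the renormalised values, named as without mitochondrial genes. The enzymes and the chaperone summed to 792, 817 and 729 TPM. Levels were tested with limma against 1 TPM on the log2(TPM + 0.1) scale, with Benjamini-Hochberg adjustment over all 12822 genes above 0 in at least 1 library, and an adjusted p under 0.05 was required to call a gene above or below that level. Of the 57 members, 32 were above 1 TPM, 0 were below, 19 were not decided and 6 were listed at 0 in all libraries. Among the 51 members tested the share above was 62.7%, close to the 60.8% of all tested genes, and 0 members below compares with 2.18% of all tested genes. Members above 1 TPM with a mean of at least 10 TPM numbered 29 of the 51 tested, against 6586 of all 12822 tested genes (51.4%). The median over all 57 members was 11.9 TPM, beside 2.24 TPM over all genes in the table. The latter includes 7486 genes at 0 in all libraries, and over the 12822 tested genes the median was 11.5 TPM.

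Chains and enzymes are given apart. Of 44 chains, 21 were above 1 TPM (53.8% of the 39 tested), and the median over all 44 was 4.69 TPM. Of the 12 genes for enzymes or the chaperone, 10 passed (90.9% of the 11 tested), and the median over all 12 was 39.1 TPM. Beside these, 60.8% of all tested genes were above 1 TPM. The median was 2.24 TPM over all genes in the table and 11.5 TPM over the tested genes. Chain levels were concentrated in a few genes: the 4 highest chains of each library held 58.02% ± 0.257 of all collagen chain TPM and the 8 highest held 81.3% ± 0.798 (SD, n = 3).

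**Figure D1:**
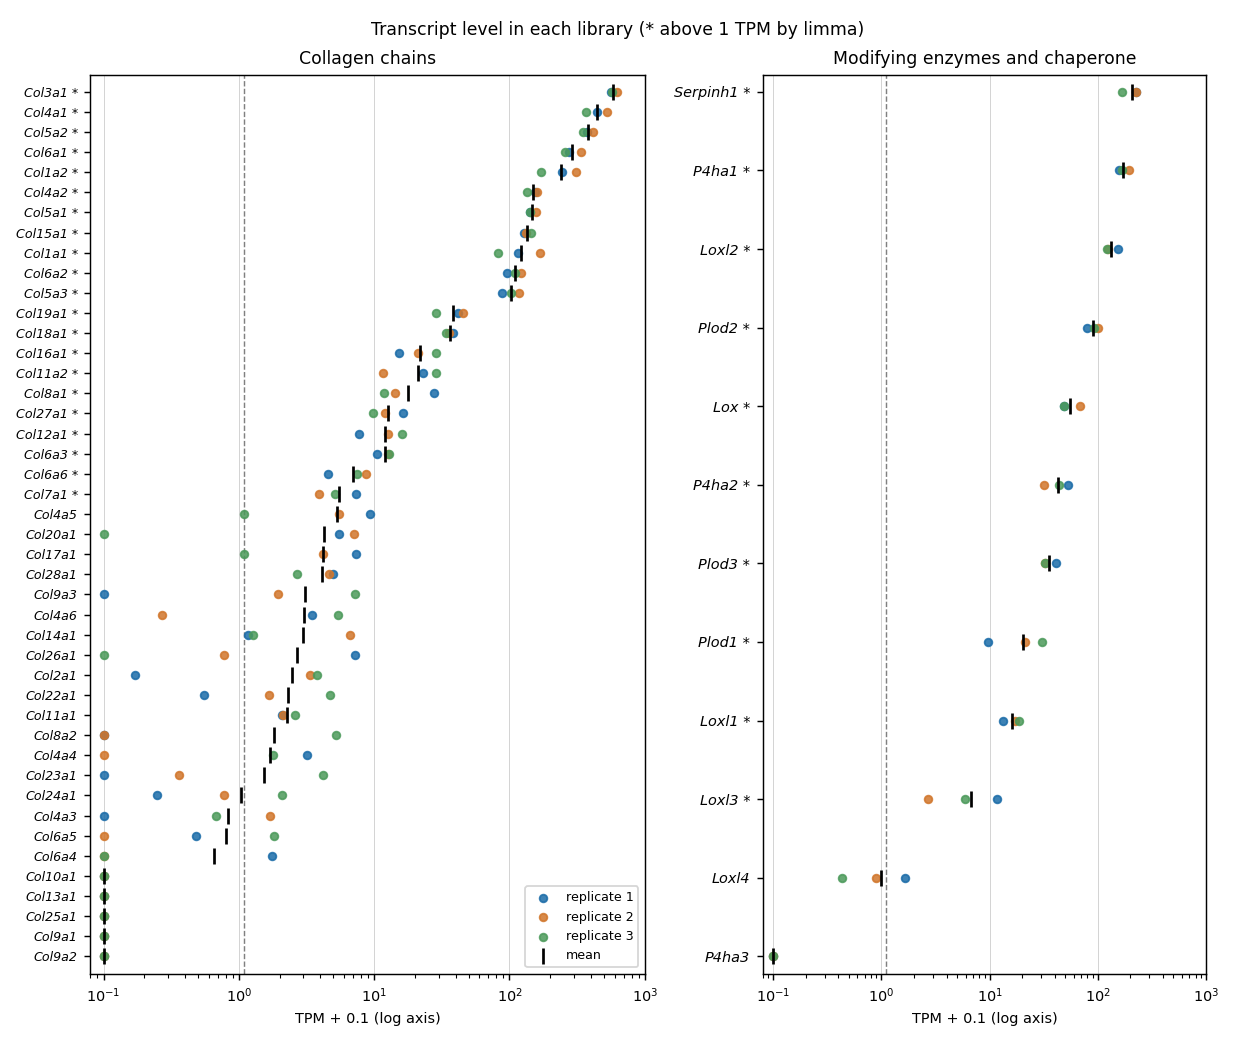
TPM + 0.1 on a log axis for each collagen chain (left) and each enzyme or chaperone (right); coloured points are the 3 libraries, black bars their mean, the dashed line the 1 TPM threshold, and an asterisk marks a gene above 1 TPM by limma. The 11 chains from Col3a1 to Col5a3 averaged more than 100 TPM, while chains below about 5 TPM were scattered widely between libraries, many with a library at 0.

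Fibrillar chains were the largest class. They held 54.8%, 55.3% and 55.02% of collagen chain TPM in replicates 1 to 3, and 8 of 11 were above 1 TPM. Col3a1, the type III chain of reticular fibres (chromosome 1, 45311538 to 45349706), was the highest member of all, at 560.87, 618.58 and 576.42 TPM. Its spread was narrow, with a CV of 5.1%, and it ranked 303 of 20308 genes by mean. The libraries lay close together for this chain, and none fell into the range of any other chain.

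Type V collagen, a minor partner of types I and III that sets fibril diameter, was represented by all 3 of its chains. Col5a2 (chromosome 1, 45374321 to 45503282) was at 376.25, 413.26 and 348.72 TPM. Col5a1 (chromosome 2, 27886425 to 28039514) was at 141.65, 156.67 and 141.38 TPM. Col5a3 (chromosome 9, 20770050 to 20815067) was at 88.06, 117.45 and 101.8 TPM. The order Col5a2, Col5a1, Col5a3 held in all 3 libraries, and the 3 ranges did not overlap. Col5a2 exceeded Col5a1 2.58-fold, by 2.66, 2.64 and 2.47 times in the single libraries. Calcr, the calcitonin receptor named above, was at 28.66, 35.36 and 30.6 TPM in the same libraries.

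Type I collagen was lower than type III and varied more. Col1a2 (chromosome 6, 4504814 to 4541544) was at 243.12, 309 and 169.72 TPM, and Col1a1 (chromosome 11, 94936224 to 94953042) at 116.01, 167.42 and 82.15 TPM. Both chains were highest in replicate 2 and lowest in replicate 3. The finished type I molecule contains more of the chain from Col1a1 than of the chain from Col1a2, whereas at the transcript level Col1a2 exceeded Col1a1 2.09-fold, 1.85-fold and 2.06-fold by library. Col3a1 exceeded Col1a1 4.83-fold, 3.69-fold and 7.01-fold. This ratio was widest in replicate 3, where Col1a1 was lowest.

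The other fibrillar chains were low. Col11a2, a chain of cartilage type XI collagen, was at 22.96, 11.43 and 28.74 TPM, and Col27a1 at 16.32, 11.99 and 9.63 TPM, both above 1 TPM. Col2a1, the main cartilage chain, Col11a1 and Col24a1 were not decided. Col11a1 was even between libraries at 1.99, 2.02 and 2.52 TPM, while Col2a1 was at 0.07, 3.28 and 3.71 TPM and Col24a1 at 0.15, 0.67 and 1.99 TPM. Without the variance trend over genes, Col11a1 was called above 1 TPM (limma adjusted p = 0.0221).

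Type IV chains held 21.5%, 21.2% and 19.3% of collagen chain TPM, nearly all of it from 1 pair. Col4a1 (chromosome 8, 11198423 to 11312826) was the next highest member after Col3a1, at 442.47, 527.34 and 370.97 TPM. Its head-to-head partner Col4a2 (11312805 to 11449287) was at 154.9, 160.35 and 135.59 TPM. Col4a1 was 2.95-fold higher (2.86, 3.29 and 2.73 times by library), and the genes start 21 bases apart. Strand setting is not given in the sources used here, so reads from the 22 shared bases cannot be assigned to either gene. Col4a1 and Col5a2 overlapped in range across libraries, and Col4a1 was the higher of them within each library.

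The other type IV pairs are also arranged head to head and were near the limit. Col4a3 and Col4a4, of the glomerular basement membrane, lie 71 bases apart on chromosome 1. Col4a4 was at 3.07, 0 and 1.69 TPM and Col4a3 at 0, 1.6 and 0.58 TPM. Col4a5 and Col4a6 lie 1308 bases apart on the X chromosome. Col4a5 was at 9.28, 5.42 and 1 TPM and Col4a6 at 3.37, 0.17 and 5.29 TPM. None of these 4 was decided, and Col4a5 exceeded Col4a6 in replicates 1 and 2 only. The mean log2 ratio of Col4a5 over Col4a6, 1.17 ± 3.33 (SD, n = 3), turned to -0.43 without replicate 2.

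Among the 16 pairs of genes compared, the widest mean gap lay within type VI collagen. Col6a1 (chromosome 10, 76708792 to 76726168) was at 274.88, 338.13 and 258.46 TPM and Col6a2 (76595762 to 76623630) at 95.29, 121.78 and 110.53 TPM. Col6a3 (chromosome 1, 90765923 to 90843971), the long chain that joins those products in the classic molecule, was at only 10.41, 12.55 and 12.7 TPM. Col6a1 exceeded Col6a3 26.2-fold, 26.7-fold and 20.2-fold, a mean log2 difference with an SD of 0.225. Their longest annotated transcripts have 4100 and 10106 bases, and a part of length or coverage in this ratio was not tested. The low value of Col6a3 was stable, with a CV of 10.8%.

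Of the chains that can stand in for Col6a3, Col6a6 was above 1 TPM at 4.48, 8.59 and 7.42 TPM. Col6a5 was at 0.38, 0 and 1.73 TPM and Col6a4 at 1.65, 0 and 0 TPM, neither decided. These 3 genes follow each other on the same strand of chromosome 9. Col6a5 and Col6a6 share 4.05% and 4.52% of the 31-base words of their longest transcripts with other genes, mostly each other, so some of their reads could be divided wrongly.

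**Figure D2:**
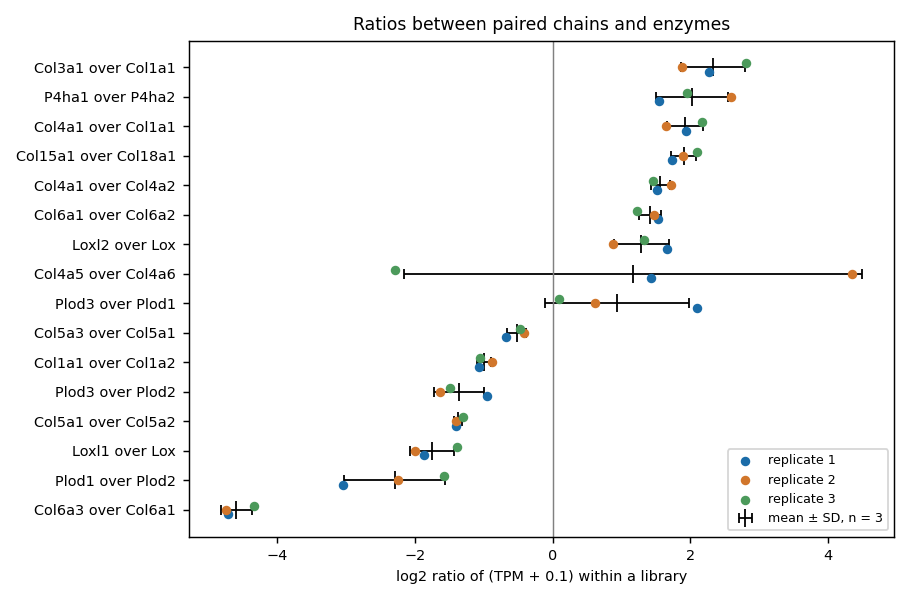
Log2 ratio of TPM + 0.1 between the genes of each of 16 pairs, within each library (coloured points) and as mean ± SD over 3 libraries (black); 0 means equal level. The lowest ratio is Col6a3 over Col6a1 at -4.60, and only Col4a5 over Col4a6 has libraries on both sides of 0.

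Multiplexins and fibril-associated chains held smaller shares of collagen chain TPM, 5.86% ± 0.782 and 2.87% ± 0.366 (SD, n = 3). Both multiplexins, which carry heparan or chondroitin sulphate chains and whose ends are released as restin and endostatin, were above 1 TPM. Col15a1 (chromosome 4, 47208161 to 47313167) was at 127.64, 131.97 and 144.05 TPM and Col18a1 (chromosome 10, 77052178 to 77166548) at 38.46, 35.59 and 33.8 TPM. Col15a1 was 3.74-fold higher, in every library. Of the members averaging at least 100 TPM, Col15a1 alone was highest in replicate 3.

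Among 9 fibril-associated chains, which decorate the surface of larger fibrils, 3 were above 1 TPM. Col19a1 (chromosome 1, 24261890 to 24587472), a chain found near basement membranes, led at 41.22, 45.32 and 28.54 TPM. Col16a1 was at 15.2, 21.04 and 28.37 TPM and Col12a1 at 7.68, 12.47 and 15.89 TPM, both lowest in replicate 1 and highest in replicate 3. Not decided were Col14a1 at 1.06, 6.48 and 1.17 TPM, Col20a1 at 5.44, 6.98 and 0 TPM, and Col22a1, a chain of the myotendinous junction, at 0.45, 1.56 and 4.6 TPM. Col9a3 was at 0, 1.83 and 7.1 TPM and its partners in type IX collagen, Col9a1 and Col9a2, were listed at 0.

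Of the remaining chains, Col8a1, a short network chain of vessel walls, was above 1 TPM at 27.56, 14.14 and 11.64 TPM. Col7a1, the anchoring fibril chain of skin, was called above 1 TPM at 7.23, 3.82 and 5.01 TPM, but not without replicate 1 (limma adjusted p = 0.11). No transmembrane chain was called: Col17a1 and Col23a1 were not decided, and Col13a1, a chain of the neuromuscular junction, and Col25a1 were listed at 0. Col17a1 was at 7.2, 4.12 and 0.99 TPM and Col23a1 at 0, 0.26 and 4.07 TPM. Col8a2 was at 0, 0 and 5.14 TPM, Col26a1 at 7.14, 0.68 and 0 TPM and Col28a1 at 4.9, 4.55 and 2.58 TPM, none decided. Col10a1, the chain of growth plate cartilage, was listed at 0. A listed 0 is not proof of absence, since estimates can fail in such a table.

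**Figure D3:**
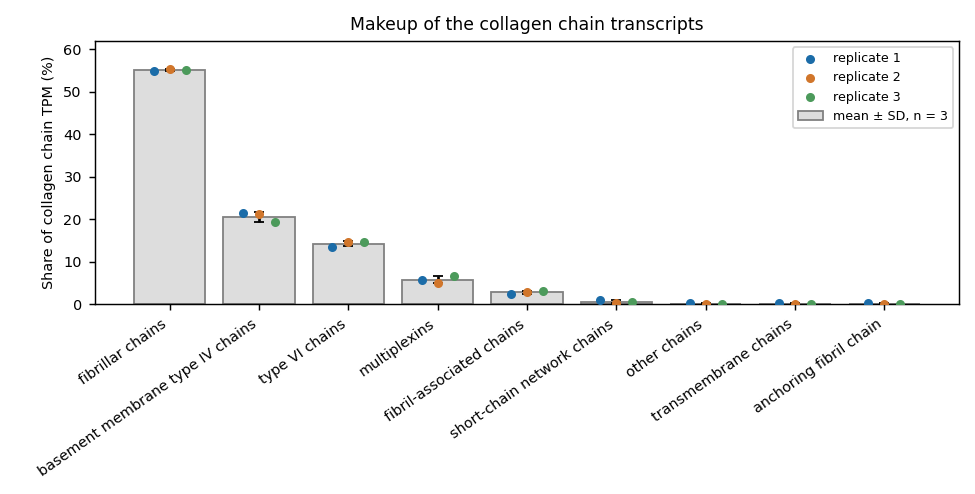
Share of collagen chain TPM held by each class of chains, in percent; bars are means with SD error bars (n = 3) and points the 3 libraries. Fibrillar chains held 55.04% ± 0.217, type IV chains 20.7% ± 1.16 and type VI chains 14.3% ± 0.651, with the points of each class close together.

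Modifying enzymes were present for each step, usually with 1 dominant paralogue. Serpinh1 (chromosome 7, 99345376 to 99353239), the collagen chaperone, was at 226.31, 225.77 and 168.15 TPM. P4ha1 (chromosome 10, 59323296 to 59373304), a catalytic subunit of prolyl 4-hydroxylase, was at 155.5, 191.96 and 168.1 TPM. P4ha2 was at 53.02, 31.89 and 43.53 TPM and P4ha3 was listed at 0. P4ha1 exceeded P4ha2 2.93-fold, 6.0-fold and 3.86-fold, widest in replicate 2, where P4ha1 was highest and P4ha2 lowest.

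Lysyl hydroxylases prepare lysines for cross-links and sugars, and all 3 were above 1 TPM. Plod2 (chromosome 9, 92542223 to 92608428), which acts on the telopeptides at the ends of the chains, was at 79.83, 100.23 and 91.45 TPM. Plod3, which also adds glucose, was at 41.24, 32.23 and 32.45 TPM. Plod1, the helix-directed enzyme, ranged from 9.56 through 21.05 to 30.48 TPM in replicates 1, 2 and 3. Plod2 was the highest of the 3 in every library. Plod3 and Plod1 were 4.28-fold apart in replicate 1 and 1.06-fold apart in replicate 3, and the mean log2 ratio of 0.93 ± 1.04 (SD, n = 3) was smaller than its spread and became 0.35 without replicate 1.

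Among lysyl oxidases, which oxidise lysines outside the cell, Loxl2 was the highest at 152.25, 124.92 and 121.94 TPM (chromosome 14, 69609068 to 69695834). Its level is uncertain, because 47.0% of the 31-base words of its longest transcript also occur in other genes, most of them in Gm21451. Lox (chromosome 18, 52516067 to 52529867) was at 48.08, 68.1 and 48.53 TPM and Loxl1, which acts with elastin, at 13.07, 17 and 18.4 TPM. Lox exceeded Loxl1 3.66-fold, 3.99-fold and 2.63-fold. Loxl3 was called above 1 TPM at 11.62, 2.62 and 5.85 TPM, but not without replicate 1 (limma adjusted p = 0.175), and Loxl4 was not decided at 1.55, 0.79 and 0.33 TPM.

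Of the 16 pairs compared, which were chosen with earlier results of these data known, 15 had the same direction in all 3 libraries. For each of these the exact sign-flip permutation test, two-sided, gave p = 0.25, the smallest that 3 libraries allow (0.267 adjusted over the pairs), so this test cannot pass a 0.05 threshold with 3 libraries and the SD of each ratio is the measure of its spread. For Col4a5 over Col4a6 the exact p was 0.75.

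Replicate 2 held the most collagen transcript. Of the 32 members above 1 TPM, 15 were highest in replicate 2, while 14 were lowest in replicate 1 and 13 in replicate 3. Over all 7796 genes above 1 TPM, 2726 were highest in replicate 2, while 2573 were lowest in replicate 1 and 2901 in replicate 3. The order was clearer at high levels only. Of the 14 members that averaged at least 100 TPM, 11 were highest in replicate 2 and 9 were lowest in replicate 3. Over all 1544 genes at that level, 34.5% were highest in replicate 2 and 33.9% lowest in replicate 3. The median SD between libraries was 0.177 on the log2 scale for these 14 members and 0.17 for all genes at that level. Rescaling the libraries moved the median of well-expressed genes by at most 0.0243 on the log2 scale.

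Some markers of other muscle cells were above 0 in all libraries, and fewer cells of a type cannot be told apart from less RNA per cell. Of all tested genes, 60.8% were above 1 TPM. The marker counts here and in the next paragraphs are to be read beside that share. Such a count alone does not show that a cell type was present. Of 10 markers of fibro-adipogenic progenitors, the matrix-making cells of muscle, 5 were above 1 TPM, and the list summed to 1817.4, 1608.6 and 1489.6 TPM. Gsn averaged 888 ± 104 TPM, Dpt 572 ± 16.7 TPM and Dcn 128 ± 41.9 TPM. Pdgfra, which defines those cells, was at 4.98, 0.11 and 0.06 TPM, and Lum at 8.58, 6.11 and 0.6 TPM. Pi16 was listed at 0 in replicate 1, and Mfap5 and Clec3b in replicate 3. Of the 10 markers, 7 were highest in replicate 1 and 7 were lowest in replicate 3.

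Of 8 tendon markers, 7 were above 1 TPM, and the list summed to 282, 350.4 and 251 TPM, highest in replicate 2 and lowest in replicate 3. Thbs4 carried that order: without it the list summed to 137, 145 and 140.5 TPM, lowest in replicate 1. Of the 8 markers, 3 were highest in replicate 2 and 3 were lowest in replicate 3. Thbs4 averaged 154 ± 47.9 TPM, Fmod 49.2 ± 15.0 TPM and Comp 27.1 ± 10.4 TPM, while Scx, a defining factor of tendon, was at 0, 0 and 8.63 TPM. Of 10 endothelial markers, 10 were above 1 TPM, and the list summed to 1951, 1591.1 and 2899.2 TPM. Fabp4 alone held 89.7%, 85.2% and 89.2% of these sums, and without it the list summed to 201, 235 and 312 TPM. Fabp4, Cldn5 and Pecam1 led that list, and Cdh5 was even at 34.83, 35.6 and 31.83 TPM. The part of any of these cells in the collagen levels was not tested.

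The remaining marker lists are given by their counts and sums. Pericyte and smooth muscle markers were above 1 TPM for 5 of 9 and below for 1 (Cnn1, at 0, 0 and 0.18 TPM), with sums of 296, 244 and 289 TPM led by Acta2, Tagln and Rgs5. Schwann cell markers were above for 5 of 8, with sums of 445, 427 and 433 TPM led by Egr2 and Pmp22. Egr2 is also an immediate-early gene. Leukocyte markers were above for 5 of 10, with sums of 262, 347 and 271 TPM led by Cd74, Lyz2 and S100a9, and Cd3e was listed at 0. Mature fibre markers were above for 4 of 10, with sums of 87.6, 83.7 and 158 TPM led by Acta1, Atp2a1 and Tnnt3, and Myh2 was listed at 0. Satellite cell markers summed to 3981.9, 4160.1 and 4001.7 TPM, led by Myod1, Des and Chodl.

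Other genes of collagen making and sensing were examined from 4 lists, and 27 of 43 were above 1 TPM, with 0 below and 3 listed at 0. Among the 40 tested the share above was 67.5%, beside 60.8% of all tested genes. By list it was 85.7% for folding and modification, 87.5% for export, 37.5% for propeptide removal and assembly, and 5 of 10 tested for receptors and uptake. In the endoplasmic reticulum, 12 of 14 folding and modifying genes were above 1 TPM. P4hb, the partner subunit of prolyl 4-hydroxylase, averaged 565 ± 8.95 TPM, above P4ha1 and P4ha2 in every library. The proline isomerase Ppib averaged 300.8 ± 18.3 TPM and Fkbp9 113 ± 7.35 TPM. All 4 prolyl 3-hydroxylase family genes, listed as Lepre1, Leprel1, Leprel2 and Leprel4, were above 1 TPM, with means from 10.7 to 27.7 TPM. Of the collagen galactosyltransferases, Colgalt1 averaged 40.7 ± 10.9 TPM and Colgalt2 was at 0, 0.82 and 0.72 TPM.

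For export of procollagen, 7 of 9 genes were above 1 TPM, led by Tfg at 82.0 ± 16.1 TPM and the coat proteins Sec24d at 32.5 ± 5.03 TPM and Sar1b at 31.1 ± 9.42 TPM. Mia2 was listed at 0, while Ctage5, a separate symbol in this table that RefSeq gives as a synonym of Mia2, was at 66.57, 49.98 and 42.36 TPM. Ctage5 was chosen after its values were seen.

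For propeptide removal and fibril assembly, 3 of 9 genes were above 1 TPM. Sparc, a collagen-binding matrix protein, averaged 688 ± 68.6 TPM, Bmp1, which removes the C-terminal propeptide, 149 ± 14.4 TPM, and its enhancer Pcolce 15.2 ± 9.53 TPM. The N-terminal propeptidases Adamts2, Adamts3 and Adamts14 averaged between 1.35 and 2.46 TPM and were not decided. Tll2, a relative of Bmp1, was listed at 0.

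For collagen receptors and uptake, 5 of 11 genes were above 1 TPM. Calcr was 1 of these 5 and was also counted among the satellite cell markers. The integrin subunit Itgb1, which also pairs outside collagen binding, averaged 964 ± 66.3 TPM. The alpha subunits that bind collagen were low: Itga1 was at 8.91, 4.01 and 2.24 TPM, and Itga2, Itga10 and Itga11 averaged between 0.867 and 1.97 TPM, none of the 4 decided. The collagen-activated kinase Ddr2 averaged 232 ± 30.5 TPM and Ddr1 68.2 ± 12.1 TPM. Ddr2 was above Ddr1 in every library. Gp6, the platelet collagen receptor, was listed at 0.

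**Figure D4:**
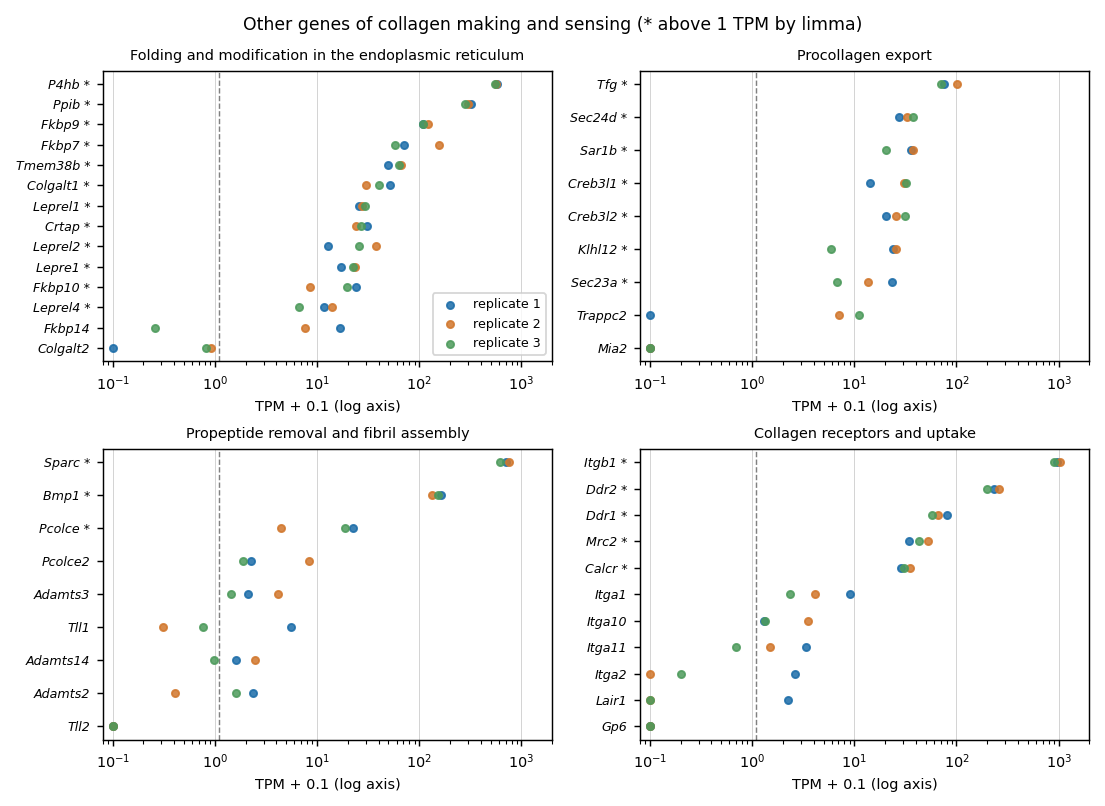
TPM + 0.1 on a log axis for the 43 other genes of collagen making and sensing, in 4 lists; points are the 3 libraries, the dashed line is 1 TPM, and an asterisk marks genes above 1 TPM by limma. Folding genes lie mostly right of the line (12 of 14), while the N-terminal propeptidases and the collagen-binding integrin alpha subunits lie near it.

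The members' promoter windows ranged from CpG-free to CpG-rich. The window of Col3a1 was 37.7% GC with 0 CpG dinucleotides and a TATAAA match 117 bases before the start site. That of Col5a1 was 75.0% GC with 34 CpG. The windows of Col6a1 and Col6a3 each had 3 CpG and no match to any of the 3 motifs, beside the more than 20-fold difference in level described above. Col4a1 and Col4a2 had 37 and 33 CpG.

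Over all windows, GGGCGG occurred in 18 of 25 windows of members above 1 TPM (72.0%) and in 11 of 20 windows of the other members (55.0%), against 65.9% for all genes above 1 TPM and 35.7% of all promoters of the same length. CCAAT occurred in 8 and 6 of these windows, 31.1% of the members' windows together, against 36.8% for all genes above 1 TPM and 37.4% of all promoters. TATAAA occurred in 4 and 3, 15.6% together, against 7.18% for all genes above 1 TPM and 13.6% of all promoters. Both strands were searched, and the 3 motifs do not contain one another. Members listed at 0 or not decided could also have CpG-rich windows: P4ha3 had 30 CpG, and Loxl4 and Col8a2 had 32 each. A match is a description of the letters only.

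**Figure D5:**
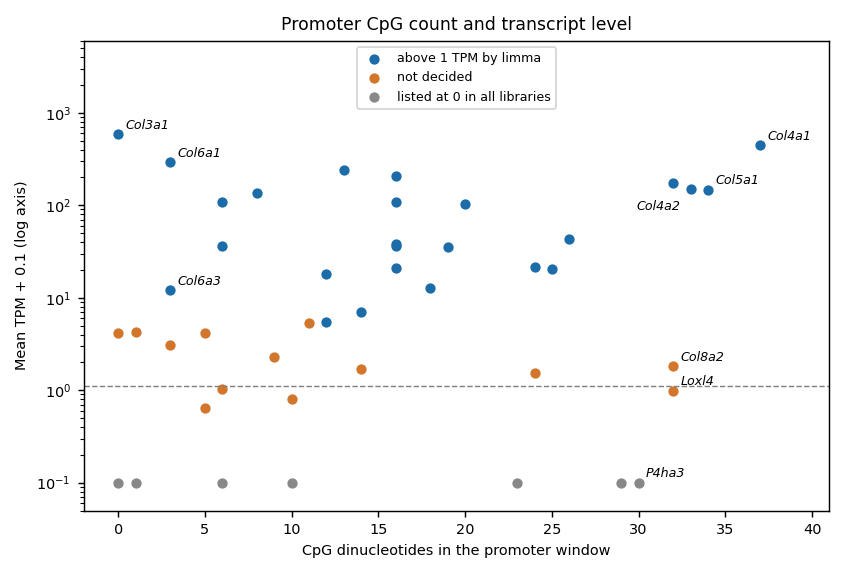
Number of CpG dinucleotides in each promoter window of 300 bases (x) and mean TPM + 0.1 of the gene on a log axis (y), for 45 windows of 42 members; colours give the level call and the dashed line 1 TPM. Col3a1 and Col6a1 are high with 0 and 3 CpG, Col4a1 is high with 37, and P4ha3 is listed at 0 with 30.

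Some neighbouring members had similar levels and others did not. Col3a1 and Col5a2 lie tail to tail on chromosome 1, 24614 bases apart, and both were among the 3 highest members. Col19a1 and Col9a1 lie tail to tail on the same chromosome, 9205 bases apart, and Col19a1 was above 1 TPM while Col9a1 was listed at 0. Col6a1 and Col6a2 lie on 1 strand of chromosome 10, 85161 bases apart, and Col6a1 was 2.65-fold higher.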

How the data were processed

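RNA was prepared with a Picopure kit, per the labels' protocols. The authors deposited 1 table of TPM with 1 column per library. Its name says that mitochondrial genes were removed and values renormalised, and columns sum to between 999999.85 and 1000000.3. The submitters' processing notes name CASAVA 1.8, Bowtie 0.12.9, RSEM 1.2.3 and build mm10. Their roles and settings, the strand and the annotation are not stated in any source used. TPM carries no depth, so no counting interval is given.

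Libraries were matched by the column names in their titles. With limma 3.58.1 (R 4.3.3), an intercept on log2(TPM + 0.1) was tested against 1 TPM, two-sided, with the prior variance following mean level, and p-values were adjusted (Benjamini-Hochberg) across 12822 genes; 7486 genes at 0 throughout were not tested. The test was tried on simulated data with normal noise, its spread modelled on these libraries. Such a trial does not show that the calls made here are right. Pair ratios used log2(TPM + 0.1) within a library. Positions are from GENCODE M21 (GRCm38, the assembly of mm10) and promoters from RefSeq (GRCm38.p6). Shared 31-base words were counted between the longest transcripts of genes. Every member called above 1 TPM, all enzymes and all pair genes are named; of other lists, the 3 highest genes, genes below 1 TPM and genes at 0. For 1 marker list, 1 gene of these is not reported here. Genes named outside this rule, such as Lum, Cdh5 and Ctage5, were chosen after their values were seen. Alternatives were 2 pseudocounts, 2 filters, no variance trend, rescaling, a 5 TPM threshold and leaving out each replicate. The set of members, the lists and the pairs were chosen with earlier results of these data known. Listed symbols with no row (1) were not used.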

Additional observations from a re-analysis of the deposited data

How the results depend on the processing

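Of the 10 alternatives, 1 tested against 5 TPM, and 29 members and 25 other pathway genes were above that level. Over the rest, the number of members above 1 TPM, 32, lay between 30 (without replicate 1) and 35 (without replicate 3). The number of other pathway genes above 1 TPM, 27, lay between 27 and 29. Fits on 2 libraries are not like for like with the main fit, and their limma adjusted p could move far. For Col11a2 it fell from 2.23e-06 to 9.62e-33 without replicate 2, and for Loxl3 it rose from 0.0191 to 0.175 without replicate 1. Col7a1 and Loxl3 lost their call without replicate 1, and Col6a6, Col7a1 and Loxl3 were not decided against 5 TPM. Col4a5, Col17a1 and Col20a1 were called above 1 TPM without replicate 3, Col28a1 and Col11a1 without the variance trend, and Col28a1 also with a mean of at least 1 TPM required (limma adjusted p = 0.045). Col6a4 was below 5 TPM. Members not decided in either fit were given no direction. Of the 16 pair ratios, only that of Col4a5 over Col4a6 changed sign: its log2 ratio of 1.17 became -0.43 without replicate 2, within a range of -0.43 to 2.89 when 1 replicate was left out, and the cause was not tested. With a pseudocount of 1 it was 0.68. Of the other ratios and the class shares, those that moved by over 1.5 times were Plod3 over Plod1 (log2 ratio 0.93, and 0.35 without replicate 1) and the share of Col26a1 and Col28a1 in collagen chain TPM (0.226%, and 0.128% without replicate 1). With 3 libraries and unknown depth, levels of a few TPM were rarely decided. No paired analysis was possible because the series has 1 group, so replicate numbers pair no samples across groups; gene ratios were taken within libraries.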
